A study of Homo sapiens with 12 samples.

Results

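MDA-MB-231 cells cultured for 3 days in a synthetic matrix with the collagen mimic GFOGER were compared with the same cells in a matrix with the laminin mimic IKVAV. MDA-MB-231 is an established line of basal, estrogen receptor negative (ER−) breast cancer that was derived from a pleural effusion. Of the 11 libraries with counts in the series, the 5 of this line on day 3 were used, 3 with GFOGER (replicates 1 to 3) and 2 with IKVAV (replicates 1 and 2). IKVAV replicate 3, which its label calls an outlier with likely RNA quality or library problems, was not analysed here. The members of the comparison are the 14092 genes, of 23368 distinct gene symbols, that passed a filter on low counts. The other 6 libraries are of T47D cells, an ER+ luminal line, with the same mimics and day. They are used only where the lines are compared and in an alternative setting with all groups in 1 fit.

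Cells of both groups were encapsulated as single cells at 5000 cells per µL in gels of 4-arm poly(ethylene glycol) held together by a peptide crosslink that cells can cleave, and the gels of the groups differed in the pendant peptide. Both groups therefore carry the same crosslink, and a matrix without a peptide or a culture on plastic is not among the libraries. RNA of 1 replicate came from 3 gels of the same composition, which were first digested with collagenase for 20 minutes. The labels do not say whether replicates came from separate cultures, so p-values measure the spread between these libraries, which may be technical. The comparison addresses how a matrix rich in a collagen cue and one rich in a laminin cue differ in the gene expression of an aggressive breast cancer cell at an early time in 3D culture.

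As background, GFOGER is a triple-helical collagen sequence that is bound by the collagen-binding integrins, receptors that pair an α subunit such as ITGA1, ITGA2 or ITGA10 with the β subunit ITGB1. IKVAV is a short sequence from a laminin chain, and laminins are the sheet-forming proteins of the basement membrane on which epithelial cells rest. Integrin contact with the matrix connects to the actin cytoskeleton through focal adhesions, and the transcriptional coactivators YAP and TAZ are known to respond to that mechanical link through the DNA-binding TEAD proteins. Cancer cells also rebuild the matrix, by secreting their own matrix proteins and by releasing proteases and the inhibitors of those proteases.

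The GFOGER libraries held 16703842 to 18452145 counted reads and the IKVAV libraries 15719934 and 16902131, with 16620 to 17034 genes detected. A count of 3 corresponded to 0.163 to 0.191 cpm, and such limits cover counting error only because reads were not counted per molecule. Levels below are in cpm, which scales the counts to a common library size, are normalized by TMM, are not scaled by gene length, and are therefore compared between libraries and not between genes. GFOGER replicate 3 stood apart from the other libraries of its group. Its counts differed from replicates 1 and 2 by 16.5 and 18.6 times the sampling noise, where replicates 1 and 2 differed by 2.50 times, the IKVAV libraries by 3.94 times, and libraries of different mimics by 67.0 to 77.5 times. The first principal component (73.7% of the variance) separated the mimics and the second (10.5%) separated this library. In the deposited RPKM values, the total that they imply for IKVAV replicate 1 was 5191201, with its counted reads at 303% of that total against 75.7% to 81.2% in the other 4 libraries, and these RPKM values were not used in any test.

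Markers of the line were present in the libraries of both mimics. The summed level of 10 genes chosen as features of MDA-MB-231 cells, among them VIM, CD44 and CAV1, ran from 9799 to 10603 cpm with GFOGER and from 6496 to 6737 cpm with IKVAV, against 187 to 211 cpm in T47D cells, and 4 of the 10, AXL, SPARC and PLAU among them, were higher with GFOGER. SPARC was near 0, with at most 27 counts in a library, and at 1.08 to 2.33 cpm in T47D cells it was not a feature that set these libraries apart. For 12 luminal genes it ran from 358 to 406 cpm and from 371 to 376 cpm, against 12850 to 14712 cpm in T47D cells, and ESR1, the estrogen receptor gene, had 12, 11 and 14 counts with GFOGER and 8 and 9 counts with IKVAV. Leukocyte markers summed to 345 to 456 cpm and 261 to 269 cpm, nearly all of it CD68, which cells of other types also express, while CD3E and MS4A1 were at 0. Endothelial markers summed to 107 to 120 cpm and 62.2 to 69.2 cpm, with ESAM the main part and VWF and CDH5 at no more than 4 counts in any library. Adipocyte markers summed to at most 2.90 cpm, with ADIPOQ and CIDEC at 0.

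Of the 14092 genes, 1349 were differentially expressed, which required more than a 2-fold difference and a Benjamini-Hochberg adjusted p below 0.05 in edgeR's quasi-likelihood test. Expression was higher with GFOGER for 439 genes (3.12% of those tested) and lower for 910 genes (6.46%). With no limit on the fold change the counts were even, with 3021 genes higher (21.4%) and 3019 lower (21.4%), and the median log2 fold change over all genes was 0.004. The excess of lower genes thus lay in the size of the differences. Genes past the 2-fold threshold were mainly of low level. Their median average log2 cpm was 2.52 for the higher and 1.99 for the lower genes, against 4.76 over all genes tested. The fold change exceeded 4 for 105 higher and 191 lower genes, and 8 for 39 and 46. The genes with higher expression took 2.81% to 2.85% of the reads of each GFOGER library and 1.07% to 1.08% with IKVAV, and those with lower expression took 1.44% to 1.51% and 4.24% to 4.29%. The libraries of the mimics did not overlap for 1339 of the 1349 genes, and for 63.0% of all genes tested. A lack of overlap, stated below for single genes, was thus common among all genes. Counts of single lists below stand beside the shares of all genes given here. Without GFOGER replicate 3, 1483 genes were differentially expressed, 452 higher and 1031 lower, and 1241 of them were also among the 1349.

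**Figure D1:**
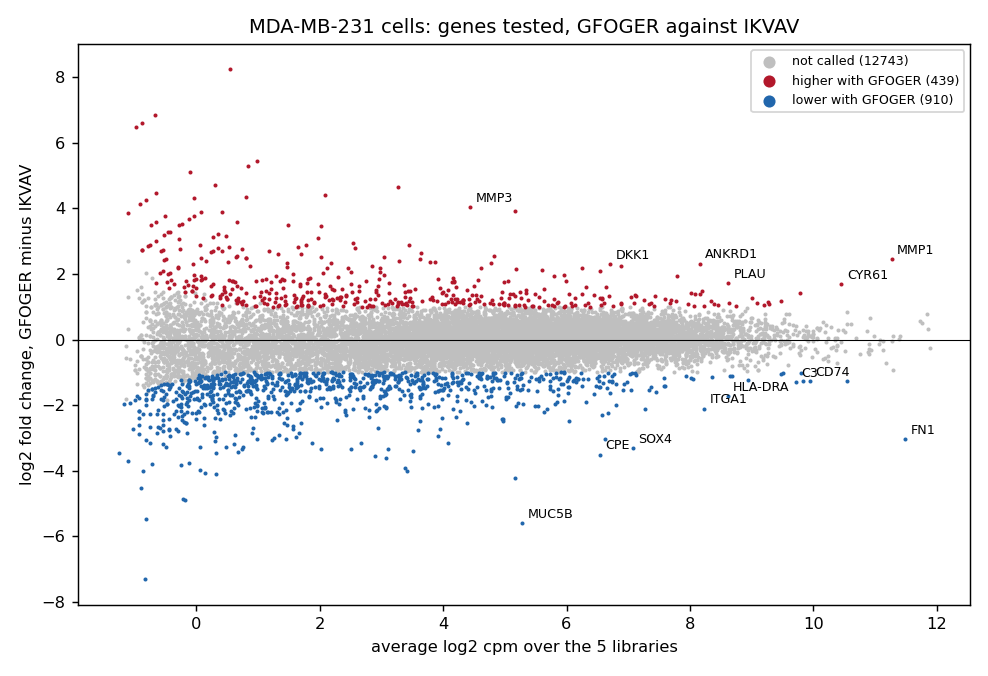
Log2 fold change (GFOGER minus IKVAV, vertical axis) against average log2 cpm over the 5 libraries (horizontal axis), with 1 point per gene tested in MDA-MB-231 cells. Red points are the 439 genes higher and blue points the 910 genes lower with GFOGER at an adjusted p below 0.05 and over 2-fold, grey points are the other genes, and FN1 and MMP1 stand out among the abundant genes.

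Matrix receptors went in both directions. Of 17 integrin subunits tested, 1 was higher and 4 were lower with GFOGER, and the median log2 fold change was -0.17 against 0.004 over all genes. Collagen-binding subunits were the 2 largest decreases. In these bulk libraries, fewer cells of a type and less RNA per cell cannot be told apart, here or in the results that follow. ITGA1 (hg19, chromosome 5, 52084136 to 52249485) was at 137, 137 and 111 cpm with GFOGER and 544 and 567 cpm with IKVAV (edgeR's quasi-likelihood test, log2 fold change -2.11, standard error 0.0985, adjusted p = 1.29e-10). All 3 GFOGER libraries thus lay far below both IKVAV libraries. ITGA1 overlaps PELO, which had up to 1778 counts in a library, so reads in the shared span cannot be assigned to 1 of them. ITGA10, a collagen-binding subunit of cartilage and other tissues, was at 11.01, 11.3 and 10.9 cpm with GFOGER and 61.8 and 61.6 cpm with IKVAV (log2 fold change -2.48, standard error 0.12, adjusted p = 1.89e-10). ITGA2, the subunit of the main epithelial collagen receptor, had the opposite sign, with 949, 975 and 861 cpm with GFOGER and 693 and 709 cpm with IKVAV (log2 fold change 0.40, adjusted p = 8.43e-04), a difference under 2-fold with no overlap between the mimics. 

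The laminin-binding subunit ITGA6 was higher with the collagen mimic, at 928, 979 and 839 cpm with GFOGER and 409 and 396 cpm with IKVAV (log2 fold change 1.19, standard error 0.0877, adjusted p = 2.49e-08, edgeR). Of its partners, ITGB4, which pairs with it in hemidesmosomes, had a log2 fold change of -0.46, adjusted p = 0.00398, and ITGB1, the common β subunit, was at 1752, 1808 and 1493 cpm with GFOGER and 1630.5 and 1599 cpm with IKVAV (0.06, adjusted p = 0.597). The ITGB1 libraries of the mimics overlapped because GFOGER replicate 3 lay below both IKVAV libraries. Without that replicate the log2 fold change of ITGB1 was 0.14 with an adjusted p of 0.00033. ITGA3, the other main laminin-binding subunit of these cells, had a log2 fold change of 0.18 (adjusted p = 0.144). ITGB8 was lower, at 5.15, 6.88 and 7.26 cpm with GFOGER and 20.7 and 21.5 cpm with IKVAV (-1.72).

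Of 15 other matrix receptors, 0 were higher and 4 were lower at the 2-fold threshold, while 5 and 7 passed the adjusted p at any fold, including the 4, with a median of -0.22. MRC2, an endocytic receptor for collagen fragments, was at 48.3, 51.7 and 61.6 cpm with GFOGER and 146 and 139.9 cpm with IKVAV (log2 fold change -1.41, standard error 0.11, adjusted p = 4.95e-08, edgeR). DDR1, a receptor tyrosine kinase for collagens, was at 87.2, 90.5 and 113 cpm with GFOGER and 209 and 199.8 cpm with IKVAV (-1.07). GFOGER replicate 3 was the highest of the GFOGER libraries for both genes and still lay below both IKVAV libraries. With offsets for GC content and length, an alternative that was added with the data in view, the log2 fold change of DDR1 was -0.89, short of the 2-fold threshold. SDC2, a cell surface heparan sulfate proteoglycan, was lower (-1.26), and BCAM, a laminin receptor, was lower by little more than 2-fold (-1.03) and passed the threshold in 11 of 15 alternative settings (-1.20 to -0.87), but not without GFOGER replicate 1, GFOGER replicate 2 or IKVAV replicate 2, or with the offsets. CD44, the hyaluronan receptor, was at 2062, 2023 and 1899 cpm with GFOGER and 1691 and 1658 cpm with IKVAV, with a log2 fold change of 0.25, adjusted p = 0.011. Its adjusted p was 0.0738 without GFOGER replicate 1, 0.088 without IKVAV replicate 1 and 0.139 without IKVAV replicate 2 (edgeR). 

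**Figure D2:**
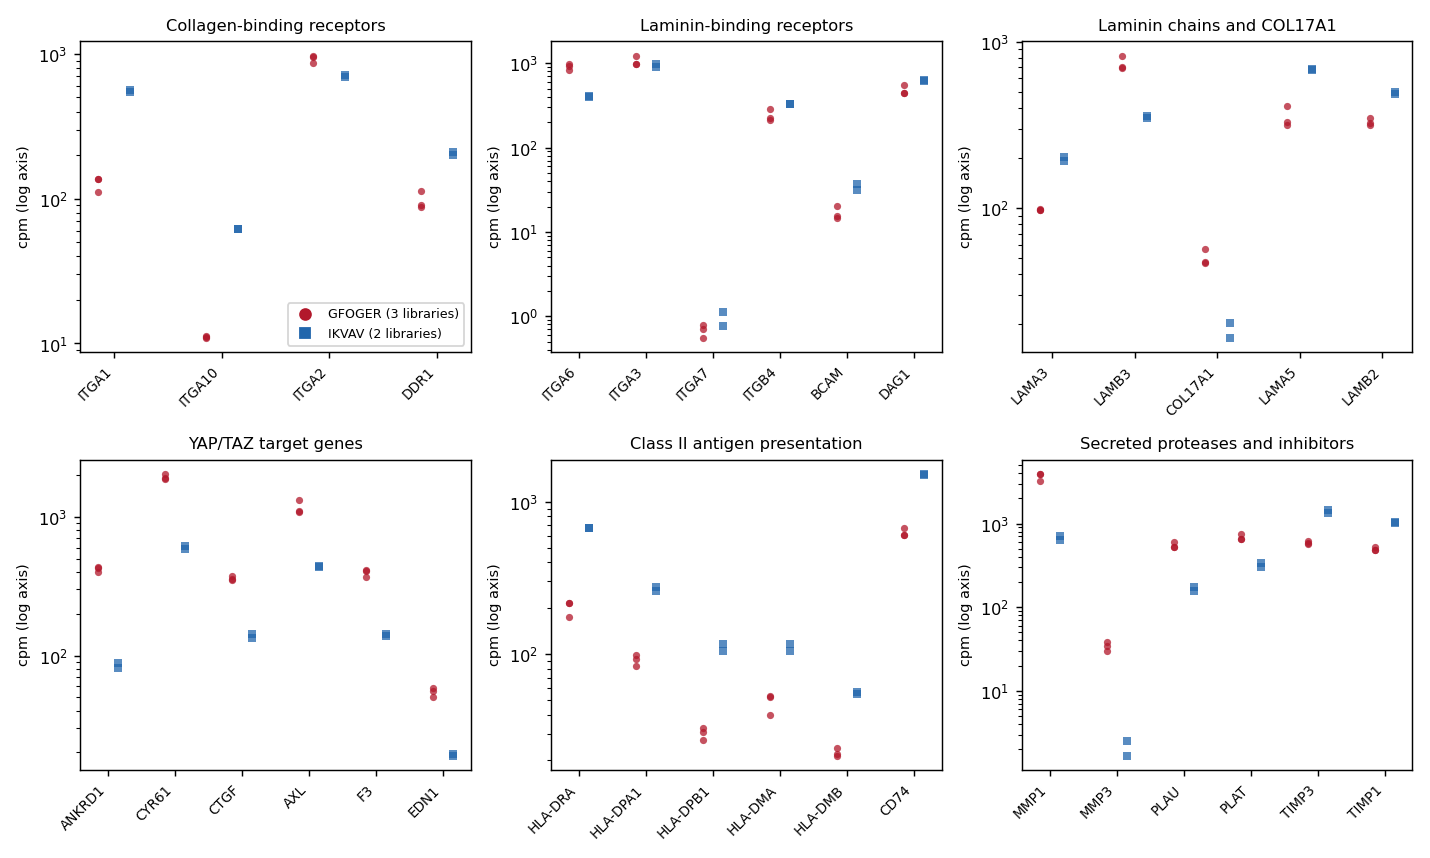
Levels (cpm, log axis) of matrix receptors, laminin chains, YAP/TAZ targets, class II antigen presentation genes and secreted proteases in each library, with circles for the 3 GFOGER libraries and squares for the 2 IKVAV libraries of MDA-MB-231 cells. The collagen-binding ITGA1 and ITGA10 and the class II genes lie lower with GFOGER, and ITGA6, LAMB3 and most of the YAP/TAZ targets lie higher, by more than the spread between replicates.

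Genes of the basement membrane went both ways. Of 25 tested, 6 were higher and 4 were lower with GFOGER, with a median log2 fold change of -0.01. LAMB3 encodes a chain of the laminin of epithelial anchoring and was at 702, 697 and 824 cpm with GFOGER and 349 and 358 cpm with IKVAV (log2 fold change 1.07, standard error 0.0922, adjusted p = 1.58e-07, edgeR). It was higher in every GFOGER library than in either IKVAV library, although it had a log2 fold change of 0.98, just short of the threshold, without GFOGER replicate 3. Another chain of the same laminin, LAMA3, went the other way, with 98.4, 97.6 and 97.3 cpm with GFOGER and 202 and 193 cpm with IKVAV (log2 fold change -1.01, adjusted p = 1.89e-07). COL17A1, a transmembrane collagen that links hemidesmosomes to this laminin, was at 47.5, 46.7 and 56.5 cpm with GFOGER and 20.5 and 16.6 cpm with IKVAV (1.44). FRAS1 and FREM2, which encode proteins of a complex that anchors epithelia to the basement membrane, were higher (1.06 and 1.52), as was the laminin chain LAMA1 (1.23), while COL18A1 was lower, at 88.3, 82.8 and 122 cpm with GFOGER and 279 and 255 cpm with IKVAV (-1.45). The offsets for GC content and length left 6 higher and 1 lower on this list, and the lower gene was COL18A1, while LAMA3 was at -0.80 with them and at -0.97 without IKVAV replicate 1, both short of the threshold. The median of the list was 0.13 with the offsets.

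The gene with the largest difference in reads was FN1, which encodes fibronectin, a matrix glycoprotein that cells assemble into fibrils. FN1 (hg19, chromosome 2, 216225179 to 216300791) was at 748, 740.1 and 725 cpm with GFOGER and 6121 and 5999 cpm with IKVAV. The means were 738 ± 11.6 cpm (SD, n = 3) and 6059.7 ± 86.2 cpm (SD, n = 2), an 8.22-fold lower level with GFOGER (edgeR's quasi-likelihood test, log2 fold change -3.04, standard error 0.0696, adjusted p = 1.52e-14). All 3 libraries with the collagen mimic were within a narrow range far below the 2 with the laminin mimic. Among 29 matrix glycoproteins, 6 were higher and 6 were lower, with a median of -0.40. The lower genes included MFAP2, a microfibril protein, at 3.82, 5.56 and 5.46 cpm with GFOGER and 15.4 and 19.1 cpm with IKVAV (-1.80). SNED1 was at 4.82, 4.41 and 4.15 cpm with GFOGER and 85.9 and 81.3 cpm with IKVAV (-4.23). SNED1 overlaps MTERFD2, which had up to 409 counts in a library, so its value is uncertain in the shared part.

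Of 16 other collagen chains, 2 were higher and 2 were lower at the 2-fold threshold, with a median of -0.27. COL13A1, a transmembrane collagen, was higher, at 199, 192 and 239 cpm with GFOGER and 103 and 89.6 cpm with IKVAV (1.12), and COL6A2 was lower by little more than 2-fold (-1.04), and passed the threshold in 11 of 15 alternative settings (-1.22 to -0.78), but not without GFOGER replicate 1, GFOGER replicate 2 or IKVAV replicate 1, or with the offsets for GC content and length. The fibrillar chain COL1A1 had a log2 fold change of -0.54, adjusted p = 0.0145. Among 17 proteoglycan and hyaluronan genes, 2 were higher and 3 lower. CSPG4, a transmembrane proteoglycan, was at 41.3, 43.4 and 47.2 cpm with GFOGER and 13.6 and 12.4 cpm with IKVAV (log2 fold change 1.76, standard error 0.134, adjusted p = 3.49e-08, edgeR), and SRGN, a granule proteoglycan, at 74.7, 67.5 and 59.7 cpm with GFOGER and 23.2 and 23.4 cpm with IKVAV (1.53). The hyaluronan synthase HAS2 was lower, at 12.2, 11.9 and 11.03 cpm with GFOGER and 29.6 and 28.4 cpm with IKVAV (-1.31), as was FMOD, a collagen-binding proteoglycan, at 1.27, 1.69 and 1.64 cpm with GFOGER and 14.1 and 13.1 cpm with IKVAV (-3.15). Of 17 collagen modifying enzymes, 1 was higher and 0 were lower at 2-fold, with a median of -0.13. In that list P4HA1, a subunit of the prolyl hydroxylase, had a log2 fold change of -0.76, adjusted p = 1.17e-05, and LOXL1, a crosslinking enzyme, 0.80, adjusted p = 0.00175.

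The collagenase MMP1 and both plasminogen activators were higher with the collagen mimic, and several inhibitors of proteases were lower. MMP1, an interstitial collagenase (hg19, chromosome 11, 102660641 to 102668966), was at 3869.5, 3917 and 3194 cpm with GFOGER and 640.4 and 706 cpm with IKVAV (edgeR's quasi-likelihood test, log2 fold change 2.44, standard error 0.098, adjusted p = 2.27e-11). MMP3, stromelysin, lies beside it and was at 38.6, 34.1 and 29.97 cpm with GFOGER and 2.52 and 1.65 cpm with IKVAV (log2 fold change 4.04, standard error 0.206, adjusted p = 4.06e-10). Both genes were lowest in GFOGER replicate 3 among the GFOGER libraries, and every GFOGER library lay several-fold above both IKVAV libraries. The list of 13 matrix metalloproteinases had 3 higher and 3 lower, with a median of -0.53 that differs in sign from its largest members. MMP9 was higher, at 10.2, 8.76 and 11.03 cpm with GFOGER and 5.79 and 3.53 cpm with IKVAV (1.11), and was at 0.79, short of the threshold, without IKVAV replicate 2. MMP2, MMP13 and MMP17 were lower (-1.82, -1.46 and -1.58), although MMP13 did not pass without IKVAV replicate 1. MMP2 was low, with 5, 2 and 5 counts with GFOGER and 11 and 16 counts with IKVAV, and passed in 9 of 14 alternative settings. MMP14, the membrane collagenase, was at 1048, 1003 and 1447 cpm with GFOGER and 954 and 860.4 cpm with IKVAV, a log2 fold change of 0.36, adjusted p = 0.0244.

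Among 21 ADAM and ADAMTS proteases, 3 were higher and 3 were lower, with a median of 0.04. ADAMTS1, which cleaves proteoglycans, was at 43.5, 41.3 and 41.9 cpm with GFOGER and 7.17 and 7.23 cpm with IKVAV (log2 fold change 2.55, standard error 0.14, adjusted p = 8.5e-10, edgeR). ADAMTS14, which trims procollagen ends, moved by the same amount the other way, at 7.08, 6.58 and 7.64 cpm with GFOGER and 42.9 and 40.5 cpm with IKVAV (log2 fold change -2.55, standard error 0.136, adjusted p = 6.34e-10). Of 20 genes for plasminogen activation and cathepsins, 3 were higher and 2 were lower, with a median of -0.09. The urokinase gene PLAU was at 517, 526 and 596 cpm with GFOGER and 175 and 156 cpm with IKVAV (log2 fold change 1.72, standard error 0.0978, adjusted p = 1.31e-09), the tissue activator PLAT at 661, 653 and 749 cpm with GFOGER and 299 and 339 cpm with IKVAV (1.11), and the tissue factor gene F3 at 408, 411 and 367 cpm with GFOGER and 144 and 139 cpm with IKVAV (log2 fold change 1.48, standard error 0.0925, adjusted p = 3.7e-09). The GFOGER libraries did not overlap the IKVAV libraries for any of these 3 genes. The cathepsin CTSF was lower, at 43.8, 34.97 and 38.3 cpm with GFOGER and 106 and 106 cpm with IKVAV (-1.44). PLAU overlaps C10orf55, which had up to 141 counts.

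Of 29 protease inhibitors, 4 were higher and 8 were lower, with a median of -0.31. TIMP3, an inhibitor bound to the matrix (hg19, chromosome 22, 33196802 to 33259028), was at 581, 574 and 611 cpm with GFOGER and 1344 and 1460.1 cpm with IKVAV (log2 fold change -1.25, standard error 0.0773, adjusted p = 3.43e-09, edgeR). TIMP1 was at 477, 486 and 522 cpm with GFOGER and 1022 and 1036 cpm with IKVAV (-1.06), and the cystatin CST3 at 269, 288 and 289 cpm with GFOGER and 589.7 and 619 cpm with IKVAV (-1.10). SPINT1, which inhibits serine proteases at the epithelial surface, was at 22.97, 18.4 and 25.1 cpm with GFOGER and 92.9 and 98.6 cpm with IKVAV (-2.11). Of the higher inhibitors, SERPINB2, which acts on plasminogen activators, was at 6.25, 6.1 and 5.08 cpm with GFOGER and 0.692 and 0.647 cpm with IKVAV (3.10). SERPINB7 and TIMP4 had log2 fold changes of 1.85 and 1.00. SERPINB7 did not pass without IKVAV replicate 1 or IKVAV replicate 2 (log2 fold changes of 1.53 to 2.05 over the libraries left out). TIMP4 passed in 8 of 15 alternative settings (0.62 to 1.56), and not with upper-quartile normalization, library size alone, at least 10 counts in every library or the offsets, nor without GFOGER replicate 1, GFOGER replicate 2 or IKVAV replicate 1. TIMP2 had a log2 fold change of -0.07, adjusted p = 0.525.

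Target genes of YAP and TAZ had the most higher genes of any list described here. Of 28 tested, 9 were higher and 1 was lower at the 2-fold threshold, and 19 and 3 passed the adjusted p at any fold. The median log2 fold change was 0.54, and it was 0.62 with offsets for GC content and length and 0.50 without GFOGER replicate 3. ANKRD1, a nuclear and sarcomeric protein (hg19, chromosome 10, 92671857 to 92681032), was at 426, 436 and 398 cpm with GFOGER and 88.7 and 80.9 cpm with IKVAV (log2 fold change 2.31, standard error 0.0968, adjusted p = 3.25e-11, edgeR). CYR61, a secreted matricellular protein, was at 1861, 1899.6 and 2039 cpm with GFOGER and 587 and 613 cpm with IKVAV (log2 fold change 1.69, standard error 0.0807, adjusted p = 1.74e-10), and CTGF, of the same family, at 354, 374 and 351 cpm with GFOGER and 134 and 143 cpm with IKVAV (log2 fold change 1.38, standard error 0.0898, adjusted p = 5.77e-09). In all 3 genes the lowest GFOGER library was more than 2-fold above the highest IKVAV library. AXL, a receptor tyrosine kinase, was at 1097, 1089.9 and 1321 cpm with GFOGER and 437 and 439 cpm with IKVAV (1.42), and EDN1, endothelin, at 55.1, 50.6 and 58.5 cpm with GFOGER and 19.5 and 18.8 cpm with IKVAV (1.52). NT5E, AMOTL2 and CRIM1 were the further higher members (1.13, 1.20 and 1.02). CRIM1 lay at the threshold and passed in 11 of 15 alternative settings (0.99 to 1.12), and not with upper-quartile normalization, with library size alone or without GFOGER replicate 2 or IKVAV replicate 2. IGFBP3 was the member with lower expression, at 43.2, 46.4 and 43.5 cpm with GFOGER and 101 and 93.3 cpm with IKVAV (-1.13). TEAD2, one of the DNA-binding partners of YAP and TAZ, is not on the list and was lower, at 19.6, 21.6 and 25.2 cpm with GFOGER and 60.7 and 66.6 cpm with IKVAV (-1.52). Among its called genes, the list shares CTGF and CYR61 with the matrix glycoproteins, F3 with the plasminogen and the complement and coagulation lists, AXL with the growth factor and receptor list, NT5E with the mesenchymal list and IGFBP3 with the IGF list, so these counts are not independent of each other.

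The 250 bases before the start sites of ANKRD1, CTGF and F3, in RefSeq on GRCh38.p14, are shown because these genes rose together and are textbook targets. The minus strand is given for each, from chr10:90921088-90921337 for ANKRD1, chr6:131951373-131951622 for CTGF (CCN2 in RefSeq) and chr1:94541760-94542009 for F3. Capitals mark GGAATG, the letters bound by TEAD proteins, in ANKRD1 and CTGF, and TGANTCA, those bound by AP-1, in F3. Both strands were searched for both motifs. ANKRD1 also holds TGANTCA, which begins 195 bases before its start and is not capitalized, and no matches overlap.
ANKRD1: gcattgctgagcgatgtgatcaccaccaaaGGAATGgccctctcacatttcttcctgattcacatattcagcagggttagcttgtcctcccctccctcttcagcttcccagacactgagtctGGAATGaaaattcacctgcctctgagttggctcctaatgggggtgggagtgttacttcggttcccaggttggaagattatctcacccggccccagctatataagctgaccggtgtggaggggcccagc
CTGF: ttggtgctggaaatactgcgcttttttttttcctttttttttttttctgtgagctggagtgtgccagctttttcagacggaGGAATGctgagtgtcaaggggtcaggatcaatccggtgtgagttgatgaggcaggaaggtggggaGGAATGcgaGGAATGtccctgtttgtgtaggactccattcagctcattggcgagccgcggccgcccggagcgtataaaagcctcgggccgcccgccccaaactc
F3: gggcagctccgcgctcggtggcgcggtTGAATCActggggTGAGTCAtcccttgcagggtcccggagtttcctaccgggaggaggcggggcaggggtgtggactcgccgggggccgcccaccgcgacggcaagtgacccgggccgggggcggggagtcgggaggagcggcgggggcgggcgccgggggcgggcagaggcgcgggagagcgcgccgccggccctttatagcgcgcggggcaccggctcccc
GGAATG begins 220 and 128 bases before the start of ANKRD1 and 169, 104 and 95 bases before that of CTGF. TGANTCA begins 223 and 210 bases before the start of F3. Of 27305 promoters searched in the same way, 11.9% held GGAATG and 6.6% held TGANTCA, so a match is a description of these letters and not a bound site.

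The wider sets of the cytoskeleton had smaller medians. Of 40 actin cytoskeleton and focal adhesion genes, 2 were higher and 0 were lower at 2-fold, with a median log2 fold change of 0.27. At an adjusted p below 0.05, 21 were higher and 3 lower, against 21.4% of all genes in each direction. TPM1, a tropomyosin, was at 98.6, 96.6 and 102 cpm with GFOGER and 50.4 and 45.6 cpm with IKVAV (1.04, and 0.98 without IKVAV replicate 2), and FERMT1, an activator of integrins, at 27.01, 27.5 and 28.5 cpm with GFOGER and 13.5 and 9.94 cpm with IKVAV (log2 fold change 1.24, standard error 0.151, adjusted p = 7.61e-06, edgeR). The filamin FLNA, at 3674, 3531 and 4495 cpm with GFOGER and 2711 and 2582 cpm with IKVAV, and β-actin, ACTB, had log2 fold changes of 0.56 and 0.49. IQGAP2, a scaffold protein, was at 1.77, 2.174 and 0.6004 cpm with GFOGER and 26.1 and 23 cpm with IKVAV (log2 fold change -4.03, standard error 0.262, adjusted p = 5.77e-09), and GFOGER replicate 3 was the lowest of its group. IQGAP2 spans F2RL2, which had up to 113 counts and moved the other way (1.64).

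Many cell cycle genes were higher with GFOGER, by less than 2-fold. None of the 55 S phase genes or the 61 G2/M genes passed the 2-fold threshold in edgeR's quasi-likelihood test. At an adjusted p below 0.05 alone, 21.4% of all genes tested were higher and 21.4% lower. Past it were 39 higher and 0 lower S phase genes, and 50 higher and 2 lower G2/M genes. The number of higher genes depended on the IKVAV libraries, with 26 of 55 and 32 of 61 without IKVAV replicate 1 and 23 and 32 without IKVAV replicate 2 (edgeR). The medians were 0.47 and 0.46 on the log2 scale, 0.41 and 0.43 with the offsets, and 0.50 and 0.53 without GFOGER replicate 3. RRM2, a subunit of ribonucleotide reductase, was at 260.4, 269 and 217 cpm with GFOGER and 129 and 121 cpm with IKVAV (log2 fold change 0.99, standard error 0.104, adjusted p = 1.58e-06). AURKB, a mitotic kinase, was at 83.4, 92.2 and 85.5 cpm with GFOGER and 47.9 and 49.9 cpm with IKVAV (log2 fold change 0.83, standard error 0.106, adjusted p = 1.21e-05), and the proliferation marker MKI67 at 1454, 1461 and 1454 cpm with GFOGER and 1159 and 1213 cpm with IKVAV (log2 fold change 0.30, standard error 0.0735, adjusted p = 0.00387). The libraries of the mimics did not overlap for these 3 genes, and the adjusted p of MKI67 was 0.0907 without IKVAV replicate 1. CDC25B and CBX5 were the G2/M genes with lower expression (-0.51 and -0.36). Of 33 genes for G1 cyclins, CDK inhibitors and antiproliferative proteins, 0 were higher and 1 was lower at 2-fold, with a median of 0.08. CCND1 (cyclin D1) and MYC had log2 fold changes of 0.77 and 0.76, and the CDK inhibitor CDKN1B, at 41.96, 41.4 and 40.2 cpm with GFOGER and 64.6 and 68.7 cpm with IKVAV, had -0.69, adjusted p = 6.91e-05. 

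Among genes of guidance and developmental signaling, more were lower than higher with the collagen mimic at the 2-fold threshold. Of 36 semaphorins, ephrins, netrins, slits and their receptors, which steer the movement of neurites and cells, 1 was higher and 9 were lower, with a median of -0.47. At any fold, 4 passed the adjusted p as higher and 20 as lower, against 21.4% of all genes in each direction. With the offsets for GC content and length these were 6 and 19, with a median of -0.31. PLXNB1, a semaphorin receptor, was at 4.04, 3.62 and 4.53 cpm with GFOGER and 29.8 and 33.5 cpm with IKVAV (log2 fold change -2.96, standard error 0.156, adjusted p = 6.19e-10, edgeR), and PLXND1 at 55.1, 48.4 and 65.2 cpm with GFOGER and 171 and 182 cpm with IKVAV (-1.65). SEMA3C, a secreted semaphorin, was at 114, 121 and 106 cpm with GFOGER and 306 and 308 cpm with IKVAV (-1.43). SEMA7A, a membrane-anchored semaphorin that binds integrins, was the higher gene, at 51.3, 48.4 and 57.6 cpm with GFOGER and 13.5 and 10.2 cpm with IKVAV (log2 fold change 2.14, standard error 0.149, adjusted p = 1.19e-08). For these 4 genes the libraries of the mimics did not overlap.

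Of 39 Wnt and Notch genes, 1 was higher and 10 were lower, with a median of -0.26. At any fold, 6 passed the adjusted p as higher and 14 as lower, and 19 did not pass. With the offsets for GC content and length, 10 passed as higher and 13 as lower, with a median of -0.15. DKK1, a secreted Wnt antagonist, was at 154, 168 and 136 cpm with GFOGER and 31.8 and 29.9 cpm with IKVAV (log2 fold change 2.31, standard error 0.119, adjusted p = 4.72e-10, edgeR). LEF1, a transcription factor of the Wnt pathway, was at 7.25, 7.25 and 9.44 cpm with GFOGER and 35.2 and 36.99 cpm with IKVAV (log2 fold change -2.18, standard error 0.147, adjusted p = 8.65e-09), and the feedback genes of the pathway RNF43, NKD1 and AXIN2 were lower (-1.42, -2.27 and -1.03). For both DKK1 and LEF1 the libraries of the mimics were far apart. The Notch ligand JAG2 was at 6.59, 7.13 and 9.82 cpm with GFOGER and 19.5 and 20.7 cpm with IKVAV (-1.36). With the offsets, 6 and not 10 genes of this list were lower and 2 were higher. The lower genes numbered 5 without IKVAV replicate 2 and 7 without GFOGER replicate 2 or IKVAV replicate 1. NKD1 did not pass without IKVAV replicate 1, without IKVAV replicate 2 (-3.41 to -1.68 over the libraries left out) or with the replicate block, and AXIN2 did not with the offsets (-0.94). Of 44 TGF-β and BMP genes, 3 were higher and 7 were lower, with a median of -0.38. At any fold, 7 passed the adjusted p as higher and 21 as lower, and 11 and 21 did with the offsets. INHBA, an activin subunit, was at 20.5, 19.9 and 22.8 cpm with GFOGER and 4.72 and 6.94 cpm with IKVAV (1.85), and FST, which binds activin, at 13.01, 13.4 and 13.8 cpm with GFOGER and 5.41 and 5.59 cpm with IKVAV (1.28). The BMP target genes ID4 and ID2 were lower, at 2.05, 1.99 and 2.4 cpm with GFOGER and 10.95 and 8.88 cpm with IKVAV (-2.20) and 5.81, 4.11 and 4.91 cpm with GFOGER and 13.97 and 14 cpm with IKVAV (-1.5), and ID3 and SMAD6 were lower as well (-1.01 and -1.07). Each of these last genes passed in 12 of 15 alternative settings. ID3 did not without GFOGER replicate 1, GFOGER replicate 2 or IKVAV replicate 1 (-1.14 to -0.92 over the libraries left out), and SMAD6 did not without GFOGER replicate 2, without IKVAV replicate 1 or with the offsets (-1.23 to -0.93 over the settings). The list had 4 lower genes without GFOGER replicate 2 or without IKVAV replicate 1, and 5 with the offsets.

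Among 31 growth factors of the EGF and FGF families and receptor tyrosine kinases, 4 were higher and 4 were lower, with a median of 0.13. FGF5 was at 34.1, 34.2 and 30.6 cpm with GFOGER and 9.44 and 9.35 cpm with IKVAV (log2 fold change 1.81, standard error 0.141, adjusted p = 4.71e-08, edgeR), and HBEGF and FGFR4 were higher (1.25 and 1.18) with AXL. KIT, FGFR3, PDGFRB and PDGFA were the lower members (-2.19, -1.35, -1.29 and -1.29), with PDGFRB at -0.98 without IKVAV replicate 2. EGFR was at 522, 539 and 588 cpm with GFOGER and 327 and 314 cpm with IKVAV, a log2 fold change of 0.78, adjusted p = 2.72e-06. Of 13 genes of the IGF axis, IGFBP3 was lower and 0 were higher, with a median of -0.06. Of 34 AP-1 and immediate early genes, 2 were higher and 3 were lower, with a median of -0.25. FOSL1, the AP-1 subunit of invasive cells, was at 483, 489 and 639 cpm with GFOGER and 260.4 and 269 cpm with IKVAV (1.02). It passed in 11 of 15 alternative settings (0.88 to 1.09), and not without GFOGER replicate 3 (0.88), with upper-quartile normalization, with the replicate block or with the offsets. In the same list EGR3, NR4A2 and ZFP36 were lower (-2.29, -1.71 and -1.31).

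Class II antigen presentation genes were lower with GFOGER. Class II molecules present peptides on the surface of professional immune cells and of some tumor cells, and their genes lie together on chromosome 6. HLA-DRA (hg19, chromosome 6, 32407619 to 32412826) was at 216, 215 and 175 cpm with GFOGER and 671 and 674 cpm with IKVAV (edgeR's quasi-likelihood test, log2 fold change -1.74, standard error 0.0951, adjusted p = 8.25e-10). CD74, the invariant chain, which lies on chromosome 5, was at 602, 603 and 671 cpm with GFOGER and 1502 and 1524 cpm with IKVAV (log2 fold change -1.27, standard error 0.0784, adjusted p = 3.27e-09), and HLA-DMA, which loads peptides, at 52.97, 51.9 and 39.6 cpm with GFOGER and 105 and 116 cpm with IKVAV (-1.20). CIITA, the regulator of class II genes, was at 27.01, 27.4 and 29.97 cpm with GFOGER and 50.4 and 47.3 cpm with IKVAV, a log2 fold change of -0.80, adjusted p = 4.33e-05, which is under 2-fold. In a run of 8 consecutive tested genes from 32407619 to 32731330 (HLA-DRA, HLA-DRB5, HLA-DRB6, HLA-DRB1, HLA-DQA1, HLA-DQB1, HLA-DQA2 and HLA-DQB2), every gene was differentially expressed and lower, by -1.19 to -2.30 on the log2 scale. A second run of 3 genes from 32971960 to 33057473 held HLA-DOA, HLA-DPA1 and HLA-DPB1 (-1.82, -1.54 and -1.87). The DR, DQ and DP genes have near-identical copies and HLA-DPA1 overlaps HLA-DPB1, so the share of reads of each is uncertain. The leukocyte markers summed to 345 to 456 cpm with GFOGER and 261 to 269 cpm with IKVAV, nearly all of it CD68 (0.61). Of the others, LYZ was lower with GFOGER, at no more than 68 counts in a library (-1.10), CD14 had a log2 fold change of -0.29 (edgeR, adjusted p = 0.175) and CSF1R one of -0.01. PTPRC had no more than 10 counts in a library, and CD3E and MS4A1 were at 0. The part of such cells in the class II result was not tested.

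The bases before the start of HLA-DPB1 (RefSeq on GRCh38.p14, plus strand, chr6:33075740-33075989) are shown because class II promoters share a Y box, a motif with the letters ATTGG. Capitals mark ATTGG or, on the other strand, CCAAT.
HLA-DPB1: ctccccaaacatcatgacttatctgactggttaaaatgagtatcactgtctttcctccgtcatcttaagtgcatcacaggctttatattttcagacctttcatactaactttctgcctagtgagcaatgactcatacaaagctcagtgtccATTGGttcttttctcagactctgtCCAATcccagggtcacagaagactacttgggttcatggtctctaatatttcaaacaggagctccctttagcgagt
The matches begin 99 and 75 bases before the start, and TGANTCA, not capitalized, begins 123 bases before it. ATTGG was found on either strand in 33.0% of the 27305 promoters, so its presence alone does not set this gene apart.

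In the whole list of 58 genes for interferon response and antigen presentation, 0 were higher and 8 were lower at 2-fold, and 13 were higher and 21 lower at an adjusted p below 0.05, with a median of -0.16. Interferon-induced genes went both ways, with IFI44L and CMPK2 lower (-1.11, and -0.98 without GFOGER replicate 2, and -2.01, which did not pass without IKVAV replicate 1) and IFIT3 and OAS3 at 0.74 and 0.64. Of 26 complement and coagulation genes, 4 were higher and 9 were lower, with a median of -0.40. CFB, complement factor B, was at 66.4, 66.1 and 65.6 cpm with GFOGER and 284 and 291 cpm with IKVAV (log2 fold change -2.12, standard error 0.0882, adjusted p = 3.11e-11, edgeR), and the central component C3 at 535, 489 and 573 cpm with GFOGER and 1286 and 1327 cpm with IKVAV (log2 fold change -1.30, standard error 0.0824, adjusted p = 4.69e-09). C1R and C1S were also lower, at 13.01, 12.1 and 13.3 cpm with GFOGER and 35.1 and 39.3 cpm with IKVAV (-1.54) and 15, 11.1 and 12.6 cpm with GFOGER and 32.7 and 27.5 cpm with IKVAV (-1.22). The higher members of the list were F3 and the receptors F2RL1, F2RL2 and PROCR. F13A1, a coagulation factor subunit that is not on the list, was lower (-3.35).

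Of 58 inflammatory cytokines, chemokines and receptors, 7 were higher and 5 were lower, with a median of -0.03. NLRP3, an inflammasome sensor, was at 5.15, 6.76 and 6.44 cpm with GFOGER and 0.503 and 0.588 cpm with IKVAV (log2 fold change 3.46, standard error 0.326, adjusted p = 4.17e-07, edgeR), and CASP1 and IL18, of the same route, were higher (1.36 and 1.23). CASP1 was at 0.99 without IKVAV replicate 2, and IL18 at 0.96 with the offsets, both short of the threshold. IL1A was at 57.2, 61.5 and 42.8 cpm with GFOGER and 17.1 and 23 cpm with IKVAV (1.42), and the IKVAV libraries lay below all GFOGER libraries. LCN2, a secreted iron-binding protein, was at 65.8, 70.1 and 62.6 cpm with GFOGER and 155 and 164 cpm with IKVAV (-1.27). IL8 and IL6, abundant cytokines of this line, had log2 fold changes of -0.05 (adjusted p = 0.73) and 0.32 (adjusted p = 0.00994).

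Mucins were the list with the lowest median. Of 8 genes on it, 6 were lower and 0 were higher, with a median of -2.47, although 1 of the 8, MCAM, is an adhesion molecule that carries the mucin name only by its old alias. MUC5B, a gel-forming secreted mucin (hg19, chromosome 11, 1244295 to 1283406), was at 1.16, 1.51 and 3.06 cpm with GFOGER and 92.5 and 96.2 cpm with IKVAV (log2 fold change -5.61, standard error 0.208, adjusted p = 9.01e-12, edgeR). The surface mucin MUC1 was at 24.6, 22.4 and 28.8 cpm with GFOGER and 189.6 and 226 cpm with IKVAV (log2 fold change -3.04, standard error 0.119, adjusted p = 1.82e-11), and MUC4 at 7.42, 6.28 and 10.3 cpm with GFOGER and 20.5 and 28.1 cpm with IKVAV (-1.60). GFOGER replicate 3 was the highest GFOGER library for all 3 mucins and still lay below both IKVAV libraries. The other lower members had an average log2 cpm below 2, so the count and median of the list rest in part on genes of low level. Of 30 epithelial junction and polarity genes, 0 were higher and 4 were lower, with a median of -0.22. ELF3, an epithelial transcription factor, was at 6.59, 7.19 and 5.46 cpm with GFOGER and 29.3 and 24.1 cpm with IKVAV (-2.06), and the junction protein JUP at 166, 153 and 202 cpm with GFOGER and 385 and 419.7 cpm with IKVAV (-1.21). TJP3 and LLGL2 were also lower (-2.98 and -1.68). E-cadherin, CDH1, was low with both mimics, at 2.21, 2.54 and 2.35 cpm with GFOGER and 5.35 and 3.94 cpm with IKVAV, with a log2 fold change of -0.97, adjusted p = 0.00594, and with an adjusted p of 0.102 without IKVAV replicate 1.

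Genes of the mesenchymal state went both ways as well. Of 17 tested, 3 were higher and 3 were lower, with a median of -0.22. NT5E was at 822, 831 and 712 cpm with GFOGER and 379.9 and 339 cpm with IKVAV (1.13) and FSTL1 at 286, 296 and 262 cpm with GFOGER and 133 and 119 cpm with IKVAV (log2 fold change 1.16, standard error 0.0965, adjusted p = 9.59e-08, edgeR), while the transcription factor SNAI1 was at 2.93, 2.23 and 3.49 cpm with GFOGER and 6.48 and 7.47 cpm with IKVAV (-1.27) and its relative SNAI2 had 0.97, adjusted p = 2.29e-05. VIM, vimentin, was at 2197, 2255 and 2317 cpm with GFOGER and 1439.7 and 1399.7 cpm with IKVAV, a log2 fold change of 0.67, adjusted p = 2.19e-06. Of 10 keratins, 1 was higher and 0 were lower, and the higher one was KRT17, with 12, 10 and 12 counts with GFOGER and 2 and 1 counts with IKVAV. The median of the keratins was 0.42. Of 11 S100 genes, 0 were higher and 1, S100P, was lower (-2.09), with a list median of 0.22 that was 0.02 with the offsets.

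Lists for metabolism and stress differed in direction. Of all genes tested, 3.12% were higher and 6.46% lower at 2-fold, and 21.4% each way at any fold. The share lower at 2-fold was 18.9% for aldehyde, drug and steroid genes, 13.2% for cholesterol genes and 11.4% for lysosome genes. It was 7.5% for hypoxia and glycolysis, 7.14% for NRF2 targets, 2.33% for ATF4 genes and 0% for heat shock genes, near or below that over all genes. Of 35 lysosome and autophagy genes, 0 were higher and 4 were lower at 2-fold, and 1 was higher and 22 lower at an adjusted p below 0.05, with a median of -0.36. TFEB, the transcription factor that drives lysosomal genes, was at 3.49, 2.174 and 4.31 cpm with GFOGER and 12.02 and 10.2 cpm with IKVAV (-1.73), and the glucosidase GAA at 29.4, 33.5 and 42.5 cpm with GFOGER and 108 and 109.8 cpm with IKVAV (log2 fold change -1.64, standard error 0.13, adjusted p = 5.58e-08, edgeR). Of 40 hypoxia and glycolysis genes, 0 were higher and 3 were lower (4 and 21 at any fold), with a median of -0.29. These were EGLN3, a prolyl hydroxylase, at 9.52, 9.42 and 9.22 cpm with GFOGER and 27.3 and 25.6 cpm with IKVAV (-1.49), CA12 (-1.21) and NDRG1, at 270.5, 259.9 and 283 cpm with GFOGER and 581 and 604 cpm with IKVAV (-1.13). GAPDH, often used as a reference gene, was at 1288, 1285 and 1364 cpm with GFOGER and 1265 and 1299 cpm with IKVAV (0.03, adjusted p = 0.748), and the mimics overlapped.

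Of 37 genes for aldehyde, drug and steroid metabolism, 2 were higher and 7 were lower, with a median of -0.23. AOX1, aldehyde oxidase, was at 58.4, 56.2 and 55.2 cpm with GFOGER and 4.34 and 3.18 cpm with IKVAV (log2 fold change 3.91, standard error 0.162, adjusted p = 3.11e-11, edgeR), and ALDH3A1, an aldehyde dehydrogenase, at 0.941, 2.174 and 1.58 cpm with GFOGER and 26.2 and 21.5 cpm with IKVAV (log2 fold change -3.93, standard error 0.228, adjusted p = 1.57e-09). AOX1 was thus higher and ALDH3A1 lower with GFOGER. Both were chosen among the largest changes without overlap of the groups, so the lack of overlap is not a further result. The neighbor of ALDH3A1, ALDH3A2, was at 77.7, 80.6 and 66.6 cpm with GFOGER and 215 and 222 cpm with IKVAV (-1.54). Of 38 cholesterol and fatty acid genes, 0 were higher and 5 were lower, with a positive median of 0.22. The lower ones were the regulator SREBF1 (-1.19), the desaturase SCD at 174, 169 and 169 cpm with GFOGER and 386 and 389 cpm with IKVAV (-1.18), and MYLIP, ABCA1 and ABCG1 (-1.08, -1.03 and -2.53), which are targets of the sterol-sensing LXR receptors. Short of the threshold were MYLIP without IKVAV replicate 2 (-0.97) and SREBF1 and ABCA1 with the offsets (-0.94 and -0.86). SREBF1 overlaps RAI1, which had up to 2332 counts.

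Of 43 ATF4 and unfolded protein response genes, 1 was higher and 1 was lower at 2-fold, with a median of 0.30. At any fold 22 were higher and 7 lower, against 21.4% of all genes in each direction. PHGDH, the entry enzyme of serine synthesis, was at 4.21, 4.23 and 4.31 cpm with GFOGER and 1.7 and 0.941 cpm with IKVAV (log2 fold change 1.69, standard error 0.307, adjusted p = 3.45e-04, edgeR), and DDIT4, an inhibitor of mTOR signaling, at 53.7, 49.9 and 59.9 cpm with GFOGER and 145 and 153 cpm with IKVAV (-1.45). Of 28 NRF2 targets, 0 were higher and 2 were lower, with a median of 0.03 and the transporter ABCC3 at 109, 111 and 127 cpm with GFOGER and 324 and 300.1 cpm with IKVAV (-1.43). Of 27 heat shock genes, 0 were higher and 0 lower at 2-fold in edgeR's test, with 8 higher and 6 lower at an adjusted p below 0.05 and a median of 0.03.

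The 76 ribosomal protein genes are short and are given with the effect of gene length. At 2-fold, 3 were higher and 0 were lower, and 59 were higher and 0 lower at an adjusted p below 0.05, with a median of 0.42. The shares of all genes were 3.12% and 6.46% at 2-fold, and 21.4% each way at that adjusted p. The median length of the list was 764 bases. Over all genes, split into 5 bins, the median log2 fold change went from 0.20 in the shortest bin to -0.13 in the longest, and from 0.07 in the bin of lowest GC content to -0.13 in that of the highest. With offsets for GC content and length the ribosomal median was 0.18, with 1 higher gene at 2-fold and 41 higher and 3 lower at any fold. Without IKVAV replicate 2, 33 were higher at any fold. RPS27A, which overlaps C2orf63, was at 103, 52.1 and 79.9 cpm with GFOGER and 19.6 and 20.9 cpm with IKVAV (1.95), and RPS7 at 44.6, 47.8 and 33.1 cpm with GFOGER and 24.7 and 15.6 cpm with IKVAV (1.05, and 0.71 to 1.42 in 15 alternative settings, short of the threshold without GFOGER replicate 2 or IKVAV replicate 2 and with the offsets). The GFOGER libraries of RPS27A spread widely, with replicate 2 the lowest. Ribosomal genes have many processed copies, so reads shared with them make these levels uncertain. Of 14 replication-dependent histones, 2 were higher and 0 lower, and of 15 nuclear long noncoding RNAs 0 were higher and 0 lower at 2-fold (5 and 3 at any fold, edgeR). The medians of the histones and of these RNAs were 0.13 and 0.21, and -0.21 and -0.06 with the offsets, so neither list has a direction that holds under both.

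The log2 fold change between the mimics had a Spearman correlation of -0.141 with GC content and -0.199 with gene length across genes. GFOGER replicate 3 differed from its group along GC content by more. Its log2 difference from the mean of replicates 1 and 2 had a Spearman correlation of 0.694 with GC content across 12200 genes, which are not independent replicates, and its median differences ran from -0.24 in the lowest of 5 bins to 0.29 in the highest. RNA quality was not measured in the files, and the part of GC content or length in any difference between the mimics was not tested beyond the offsets, with which 1328 genes were differentially expressed, 420 higher and 908 lower. Of these, 1190 were among the 1349.

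**Figure D3:**
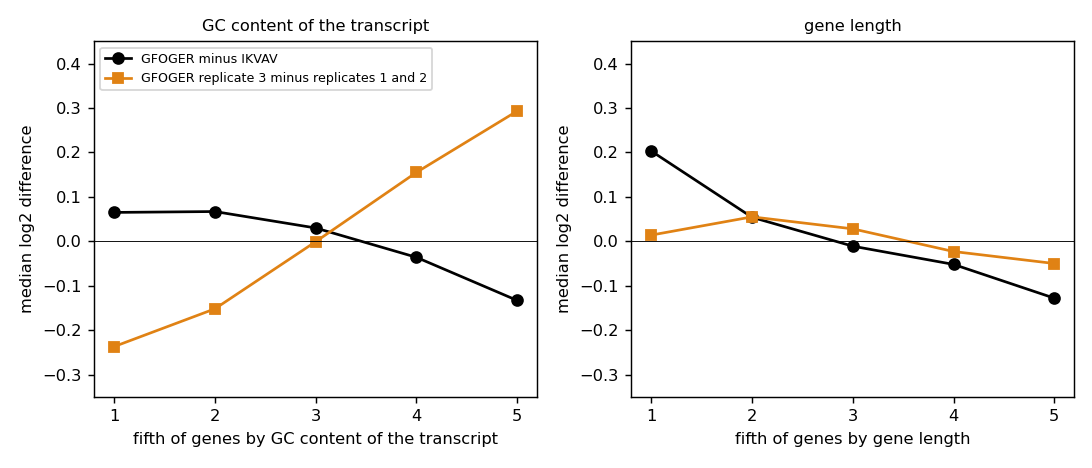
Median log2 difference (vertical axis) in 5 bins of equal gene number, ordered by the GC content of the transcript (left) and by gene length (right). Black circles are GFOGER minus IKVAV and orange squares are GFOGER replicate 3 minus replicates 1 and 2, which climb from -0.24 to 0.29 with GC content and run from 0.01 to -0.05 across length.

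**Figure D4:**
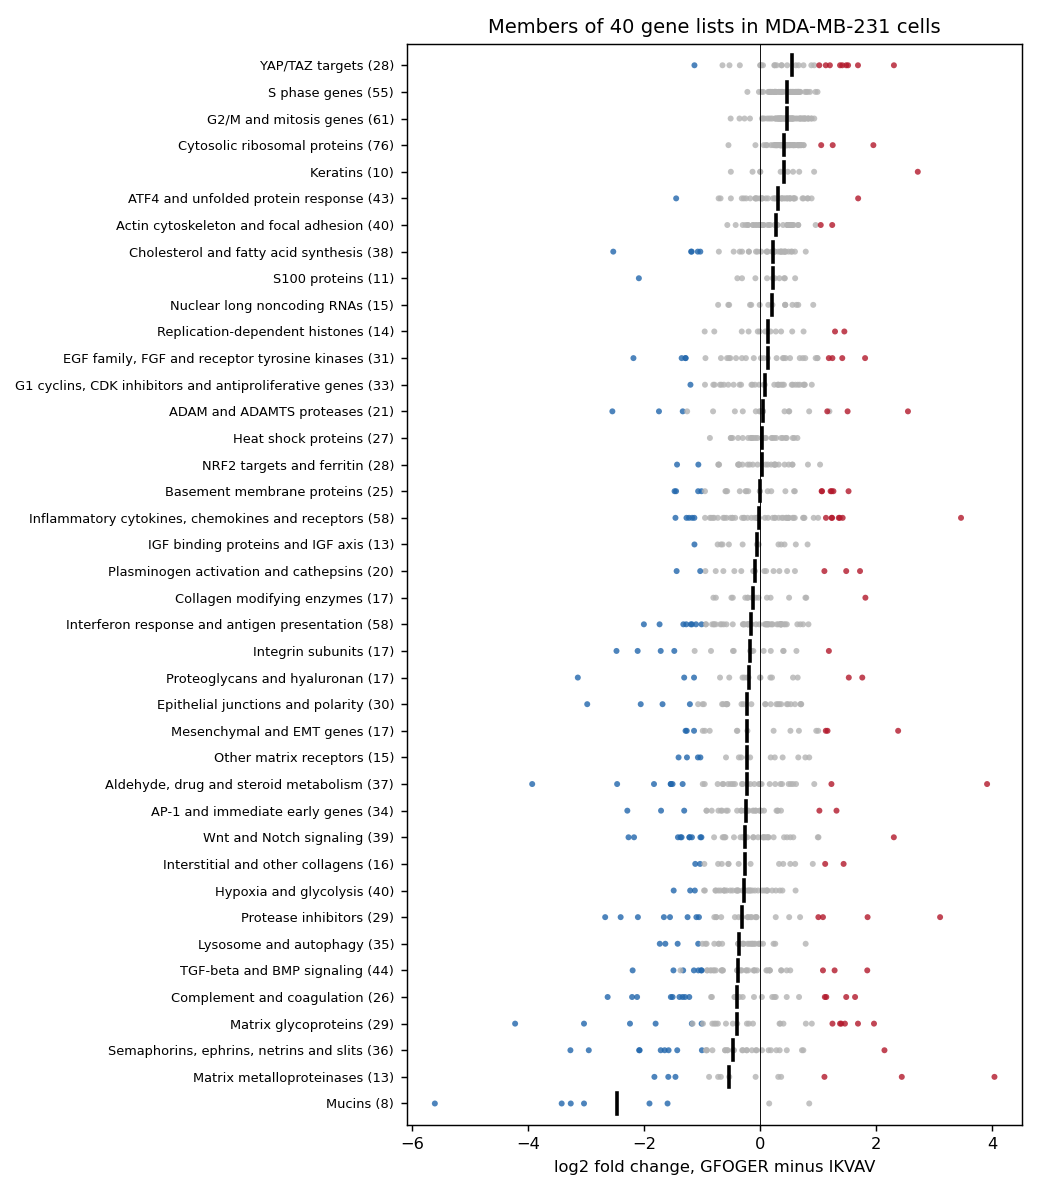
Log2 fold changes (GFOGER minus IKVAV, horizontal axis) of the members of 40 gene lists in MDA-MB-231 cells, ordered by the median (black bar), with the number tested after each name. Red and blue points passed the test as higher and lower, grey points did not, and the mucins have the lowest median and the YAP/TAZ targets the highest.

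Outside the lists, the largest changes among well-expressed genes were in genes of varied function. MARCH4, a membrane ubiquitin ligase, was at 14.9, 12.9 and 18.2 cpm with GFOGER and 0.755 and 0.471 cpm with IKVAV (edgeR's quasi-likelihood test, log2 fold change 4.64, standard error 0.285, adjusted p = 3.27e-09). SCG5, a secretory granule chaperone, was at 15.1, 16 and 17.96 cpm with GFOGER and 2.08 and 2.29 cpm with IKVAV (2.90), and the immune checkpoint ligand PDCD1LG2 at 8.97, 7.97 and 9.33 cpm with GFOGER and 1.38 and 1.12 cpm with IKVAV (2.81). AP1M2, NEGR1, GCKR, PLCXD2 and LOC730755 completed the 12 largest increases, at 2.63, 2.53, 2.93, 2.53 and 4.40. LOC730755 had 5 and 5 counts with IKVAV. PLCXD2 overlaps PHLDB2, which had up to 1562 counts in a library, so its value is uncertain in the shared part. Among the decreases, SOX4, a transcription factor of progenitor and tumor cells, was at 29.7, 29.4 and 28.5 cpm with GFOGER and 286 and 298 cpm with IKVAV (log2 fold change -3.32, standard error 0.0943, adjusted p = 2.68e-13). CPE, a carboxypeptidase of the secretory pathway, was at 18.9, 18.1 and 17.2 cpm with GFOGER and 207 and 206 cpm with IKVAV (log2 fold change -3.51, standard error 0.102, adjusted p = 2.75e-13), and its membrane relative CPD, which is abundant here, at 1036, 1062 and 792 cpm with GFOGER and 2328 and 2263 cpm with IKVAV (-1.25). The GFOGER libraries lay close together for SOX4 and CPE, far below both IKVAV libraries. The water channel AQP1 and the transporter SLC47A1 were at -3.56 and -3.41, and GAS7, B4GALNT3, F13A1 and C1orf130 at -3.61, -3.34, -3.35 and -3.34.

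Differentially expressed genes with the same direction also lay side by side. There were 26 runs of at least 3 consecutive tested genes, with 95 genes in all. After the class II runs, the longest was of 7 protocadherins on chromosome 5 (hg19, 140552243 to 140591698), adhesion proteins of the PCDHB cluster. All 7 were lower, by -1.10 to -2.14, and a further run of 4 followed from 140603078 to 140627801. PCDHB10 was at 2.71, 3.8 and 3.11 cpm with GFOGER and 14.6 and 13.7 cpm with IKVAV (log2 fold change -2.14, standard error 0.19, adjusted p = 2.13e-07, edgeR), and PCDHB11 at 6.7, 5.98 and 4.8 cpm with GFOGER and 19.6 and 17.7 cpm with IKVAV (-1.68). These genes are similar in sequence and few reads fell on most of them. On chromosome 12, 6 genes from KLRK1 to KLRC1, a cluster that encodes receptors of natural killer cells, were lower from 10524952 to 10607215, with KLRC2 at 5.92, 6.16 and 3.88 cpm with GFOGER and 21.5 and 17.8 cpm with IKVAV (-1.89) and KLRC3 at 2.49, 4.47 and 3.98 cpm with GFOGER and 14.3 and 15.6 cpm with IKVAV (-2.04). Several of them overlap or are near-identical, which leaves their single values uncertain. On chromosome 17, RNF112, SLC47A1, ALDH3A2, SLC47A2 and ALDH3A1 were lower together (19314491 to 19651746). The runs with higher expression were MMP1 and MMP3 with LOC100288077, which overlaps both, and SERPINB7, SERPINB2 and HMSD on chromosome 18. The others were LOC643650, LOC728643 and ANXA8L2 on chromosome 10, and FRAS1, ANXA3 and LOC100505702 on chromosome 4. LOC643650 and LOC728643 overlap, so reads in the shared span cannot be assigned to 1 of them. In the run on chromosome 4, ANXA3, a membrane-binding protein, was at 139, 147 and 117 cpm with GFOGER and 32.1 and 31.2 cpm with IKVAV (2.08).

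A few genes had reads with 1 mimic and next to none with the other. Under 3 counts in each IKVAV library were 26 differentially expressed genes, of 14092 genes tested. Such genes could pass the filter on low counts only through the mimic with reads, so their direction was set by that selection. FLI1, an ETS transcription factor, had 58, 41 and 60 counts with GFOGER and 1 and 1 with IKVAV. TIE1, a receptor tyrosine kinase of endothelial cells, had 37, 49 and 51 counts with GFOGER and 2 and 2 with IKVAV, while VWF and CDH5 of those cells had no more than 4 counts. Of the other endothelial markers, ESAM was higher with GFOGER (1.04), KDR was at 16.2 to 19.1 cpm against 8.97 to 9.41 cpm (0.96, edgeR, adjusted p = 1.18e-04), and PECAM1 had a log2 fold change of -0.70 (adjusted p = 0.00174). Their part in the TIE1 counts was not tested. AMPH, a membrane-bending protein, had 35, 38 and 43 counts with GFOGER and 0 and 0 with IKVAV. Under 3 counts in each GFOGER library were 8 genes, with SPTSSB, a subunit of the first enzyme of sphingolipid synthesis, at 1, 1 and 1 counts with GFOGER and 23 and 38 with IKVAV, and the cadherin CDH12 at 0, 0 and 0 with GFOGER and 16 and 22 with IKVAV. The limit was asked of 2 IKVAV libraries and of 3 GFOGER libraries, so the 26 and the 8 genes are not comparable. At this depth the counts of these genes do not show that a gene is absent with either mimic, and no fold change is given for them.

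The response of MDA-MB-231 cells was set beside that of T47D cells by testing the interaction of cell line and mimic over all 11 libraries. Of 15320 genes, 983 (6.42%) had responses that differed by more than 2-fold between the lines at an adjusted p below 0.05, 344 toward higher and 639 toward lower expression in MDA-MB-231 cells. Of the 1349 differentially expressed genes, 1347 were tested and 710 were among the 983. In the T47D libraries FN1 had a log2 fold change of -0.04, against -3.04 in MDA-MB-231, and the interaction was -2.99 (edgeR, standard error 0.113, adjusted p = 9.52e-13). For ITGA6 the values were 1.19 and -0.03 (interaction 1.22, adjusted p = 7.7e-07). CYR61 had 1.69 and -0.14 (interaction 1.84, adjusted p = 1.45e-08), and 11 of the 28 YAP/TAZ targets had an interaction that passed. SOX4 had -3.32 and -0.24 (interaction -3.08, adjusted p = 9.52e-13), and CD74 -1.27 and 0.08 (interaction -1.34, adjusted p = 4.97e-07). LCN2 moved in opposite directions, with -1.27 and 0.85 (interaction -2.12, adjusted p = 1.31e-06). For AOX1 and ADAMTS14, both low in T47D cells, the interaction did not pass (adjusted p = 0.337 and 0.77), which does not show that the lines respond alike.

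**Figure D5:**
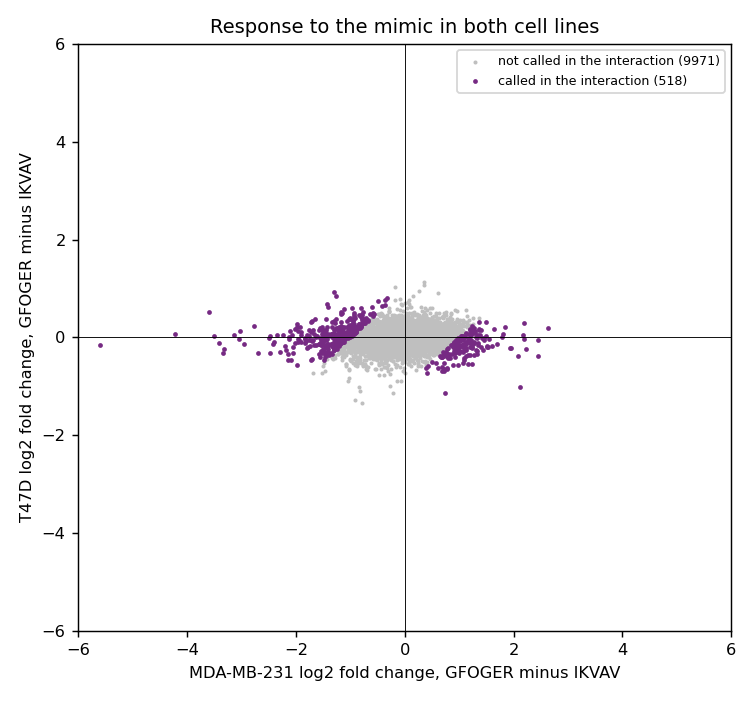
Log2 fold change (GFOGER minus IKVAV) in T47D cells (vertical axis) against MDA-MB-231 cells (horizontal axis) for the 10489 genes that reached an average log2 cpm of 2 and whose mean levels in T47D cells summed to over 4 cpm, on equal axes. Purple points are the 518 genes called in the interaction, and the cloud reaches 5.61 along the MDA-MB-231 axis and 1.35 along the T47D axis, with 487 and 10 genes over 2-fold.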

How the data were processed

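RNA of MDA-MB-231 cells in the gels was measured by poly(A) selected, stranded RNA sequencing. Per the submitters' processing notes, the authors used FastQC, Trim Galore 0.4.4, TopHat2 2.1.0, HTSeq 0.6.1p1, SAMtools 1.4, bedtools 2.17 and edgeR 3.16.5 with the genome build hg19. The deposited table holds raw read counts per gene, and the strand option of the counting is not given in the sources used here. The RPKM values that the authors deposited beside the counts were read only to compute the total they imply. Of 24656 entries, 1288 with a repeated symbol were dropped, of which 4 had counts. No value for IKVAV replicate 3 was used. The libraries of T47D cells entered the marker levels, the T47D fold changes, the interaction test and the alternative with all groups in 1 fit.

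Counts were tested with edgeR 4.0.16 in R 4.3.3 (TMM normalization, the default filter on low counts, the quasi-likelihood test and Benjamini-Hochberg adjustment over all genes tested), with mimic as the only term. A call required more than a 2-fold difference and an adjusted p below 0.05. The interaction was fitted on group means of all 11 libraries. On simulated counts for 13922 genes, 99 of 100 genes changed by 1.5 on the log2 scale and 100 of 100 changed by 3 were called, with 3 false calls, and for the interaction on 14905 genes 88 of 100 and 100 of 100, with 3 false calls. Changes were simulated only in genes above a minimum mean count, so recovery of genes of the lowest level was not tested. The simulated noise was independent between genes and held no shift with GC content like that of GFOGER replicate 3. The depth of 15719934 to 18452145 reads per library sets the counting precision, and 3 counts were taken as the floor.

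The members and the 40 gene lists were chosen with earlier results of these data known. The named genes were the 12 largest increases and 12 largest decreases without overlap and the 10 largest differences in cpm, up to 4 called genes of each list, genes the study names, the 5 largest interactions in each direction, runs of at least 3 adjacent called genes, the 5 most abundant genes under 3 counts with 1 mimic, and the cell type markers. The increases, decreases, list members and interactions had to have an average log2 cpm of at least 2. PCDHA1, ABCC12 and MGMT, of the largest interactions, did not pass the filter in MDA-MB-231 cells and are not described. Other members of the lists that are named, such as ITGA2 and CTGF, were chosen after their values were seen. Promoters are from RefSeq on GRCh38.p14, in which 10935 of the 14092 tested genes were matched by symbol, and hg19 positions are those of the deposited table. Alternatives were other tests (DESeq2 1.42.0, edgeR's exact and likelihood ratio tests), normalizations, filters and thresholds, a replicate block, all groups in 1 fit, each library left out, and offsets for GC content and length. Some genes and 1 further list that the rules cover are not reported here.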

Additional observations from a re-analysis of the deposited data

Results flagged for a closer look

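The responses to the mimics were tested for a difference between the cell lines. Of 15320 genes, 983 had an interaction of cell line and mimic at an adjusted p below 0.05 and over 2-fold (edgeR's quasi-likelihood test), and the named genes with the largest interactions are given here on the log2 scale. MMP3 had 6.75, LOC643650 5.08, MT1E 4.53 and PRKCDBP 4.42 toward higher expression with GFOGER in MDA-MB-231 cells. The mean levels of MMP3, LOC643650, MT1E and PRKCDBP in T47D cells were 0, 0, 0 and 0 cpm with GFOGER and 0.0407, 0.0876, 0.0854 and 0.107 cpm with IKVAV, so these interactions rest on few T47D reads and their size depends on the prior count of the fit. MT1E and PRKCDBP had log2 fold changes of 0.93 and 0.52 in MDA-MB-231 cells. IQGAP2, MUC5B and SPTSSB had -5.47, -5.45 and -4.89 toward lower expression with GFOGER. IQGAP2 was at 0.472 and 0.165 cpm in T47D cells, MUC5B at 2.05 and 2.29 cpm, and SPTSSB at 67.9 and 66.1 cpm, while SPTSSB had 1, 1 and 1 counts with GFOGER in MDA-MB-231 cells. Groups of 3 and 2 libraries were not tested for single distant libraries.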

How the results depend on the processing

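The number of differentially expressed genes depended on how the fold change was used. With the 2-fold threshold inside the test, 403 genes were called in MDA-MB-231 cells, 132 higher and 271 lower, and 132 in the interaction, and with the adjusted p alone 6040 (3021 higher and 3019 lower) and 3222. Leaving out 1 library at a time gave 1139 to 1483 genes, 374 to 476 higher and 765 to 1031 lower, and 797 to 1140 in the interaction. Leaving out an IKVAV library leaves 1, which is assumed to vary like the GFOGER libraries. Of the 1349 genes, 991 were called without IKVAV replicate 2, 1070 without IKVAV replicate 1 and 1219 with DESeq2. Libraries with the same replicate number were not taken as pairs, as their deviations had correlations of 0.00381 (number 1) and -0.00174 (number 2). With a replicate block 1445 genes were called, 450 higher and 995 lower, and 883 in the interaction. Replicate 3 of MDA-MB-231 cells has counts with GFOGER alone, so with the block it adds nothing to the difference between the mimics. For these cells the block is thus the fit without GFOGER replicate 3 with pairs added, and not a separate check. Tallies over the alternative settings hold both fits. The log2 fold change of GAPDH was 0.03, and -0.016 (adjusted p = 0.809) with offsets for GC content and length, an alternative chosen after seeing the data. ITGB1 passed the adjusted p with the block (0.14, adjusted p = 8.98e-05), and PRKCDBP did not without IKVAV replicate 2 (adjusted p = 0.054). In the other tests, normalizations and filters, the counts stayed within 1.5 times and the 54 genes picked by rule kept their direction and side of an adjusted p of 0.05 where they had a value, which 39 did with at least 10 counts in every library. The 2-fold call was lost for genes close to it, among them CRIM1 and TIMP4 with upper-quartile normalization and with library size alone, and FOSL1 with upper-quartile normalization. The cause of these shifts was not tested. With 3 and 2 libraries, small differences in genes of low counts were not detectable at this depth.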
